A study of Ambystoma californiense with 99 samples.

Results

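CDCA2, cdca9.S and mis18bp1a are 3 gene names tied to cell division in 2 gene count tables, one of whole brain and one of leg muscle, from tiger salamanders. A name search found 4 of the 23251 features listed. They are CDCA2 (AMEXTC_0340000277495), cdca9.S (AMEXTC_0340000149513) and 2 features named mis18bp1a. Of the latter, AMEXTC_0340000052254 had more reads in every group and is called mis18bp1a feature 1 here, and AMEXTC_0340000199657 is called feature 2. The names were chosen by brain values of these same libraries: CDCA2, cdca9.S and mis18bp1a feature 2 were 3 of 5 features called above both parents in control F1 brain. mis18bp1a feature 1 joined through its shared name. The brain difference between F1 and its parents is therefore a description with no test. So is every heat response that includes F1 brain, since it uses the same control libraries. Heat in the parental brains and BTS against CTS in brain use the parental controls against which the names were chosen. Their values are descriptions too. Muscle and sex were tested, although the muscles came mostly from the same animals as the brains.

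The study examined how acute heat changes expression in the endangered California tiger salamander (CTS), the introduced barred tiger salamander (BTS), their first-generation hybrids (F1) and backcrosses. Heated animals were warmed until they could no longer turn over from their backs, and controls were not. Brain libraries numbered 5 for CTS control, 5 for CTS heat, 5 for BTS control, 6 for BTS heat, 13 for F1 control and 10 for F1 heat. Muscle libraries had the same numbers except for 12 of F1 heat. Backcrosses to BTS (BTSbc) gave 1 control and 2 heated animals, and a backcross to CTS (CTSbc) gave 1 heated animal, in each tissue. Both tissues came mostly from the same animals, and both sexes were used.

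Cells copy and divide their chromosomes in an order of steps, in which CDCA2 and cdca9.S act. CDCA2, also called Repo-Man, brings protein phosphatase 1 to chromatin as chromosomes separate and helps to reverse mitotic phosphorylation. In Xenopus, from which the ending .S is taken, cdca9 encodes a borealin of the chromosomal passenger complex, which corrects attachments between chromosomes and the spindle and acts in cytokinesis. In a mature brain most neurons no longer divide, and cells lining the ventricles hold most of the dividing ones in salamanders.

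The sequencing depth ranged from 3213005 to 13506066 assigned reads in 47 brain libraries and from 1232774 to 20068304 in 49 muscle libraries. Heated F1 animal 16 had 5418 reads in brain and heated F1 animal 11 had 66186 in muscle, so these 2 libraries are left out of the levels below. They stayed in the edgeR fits, so fitted log2 differences, SEs and p-values of heated F1 include them unless stated. The shallowest muscle library kept, that of heated F1 animal 67, had 1232774 reads, where 3 reads make 2.43 CPM before TMM. Labels also clash: animal 76 is titled BTS but tagged CTS, and F1 animal 64 carries a control tag for brain and a heat tag for muscle. Tags were used. Levels are CPM, the reads of a feature scaled to a common library total, adjusted by the trimmed mean of M-values (TMM), and fold differences are on the log2 scale. In brain, 7 neuron marker features summed to between 2021 and 7353 CPM in CTS, BTS and F1. In muscle, 9 skeletal muscle markers summed to between 76940 and 298300 CPM. One heated CTS brain, that of animal 07, held 1708 CPM of those muscle markers. In whole tissue, fewer cells of a type and less RNA per cell cannot be told apart. Gene lengths are not used here, so levels are compared between animals and never between genes.

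cdca9.S was close to silent in the brains of both parent species and was read in most F1 brains. In CTS control brain its levels were 0, 0, 0, 0.219 and 0.302 CPM, and in CTS heat brain 0, 0, 0.131, 0.144 and 0.496 CPM. BTS control brains had 0, 0.110, 0.362, 0.458 and 0.963 CPM, and the 6 heated BTS brains ran from 0 through a median of 0.161 to 0.304 CPM. The 13 F1 control brains ran from 0.151 through a median of 4.14 to 5.27 CPM, with 11 of them above the highest parental control. The 9 heated F1 brains ran from 0 through a median of 1.62 to 5.06 CPM, with 7 above the highest heated parent. The groups overlapped, since 2 control and 2 heated F1 brains lay within the range of the parents.

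Averaged over control and heat, cdca9.S differed between F1 and CTS brain by 4.27 on the log2 scale (SE 0.65) and between F1 and BTS brain by 3.45 (SE 0.57). The control CTS group rests on 3 reads in 29996661, against 311 in 90565553 for F1. The ratio of F1 to CTS in reads per library total was 34.3 in controls (95% exact interval 11.6 to 167) and 13.1 in heat (5.44 to 41.4). The ratio of F1 to BTS was 9.41 in controls (5.31 to 18.4) and 14.1 in heat (6.25 to 39.4). Reads are pooled over animals, so the intervals cover counting error only and not the spread between animals. They are no test of the brain difference, which chose the name. In brain, 3 of the 4 features passed the call for F1 above both parents in controls, where 0.0323% of all features did. In heat only cdca9.S passed, where 0.0129% did, and over the mean of both treatments cdca9.S and mis18bp1a feature 2 passed, where 0.148% did. A call means an adjusted p below 0.05 for both F1 minus CTS and F1 minus BTS in edgeR's quasi-likelihood test. These counts restate how the names were chosen. The count of 3 in controls was 1 without CTS animal 63, 77 or 83, the 1 in heat was 0 with heated libraries alone or under a stricter filter, and the 2 over the mean was 1 without BTS animal 69 or under the stricter filter.

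**Figure D1:**
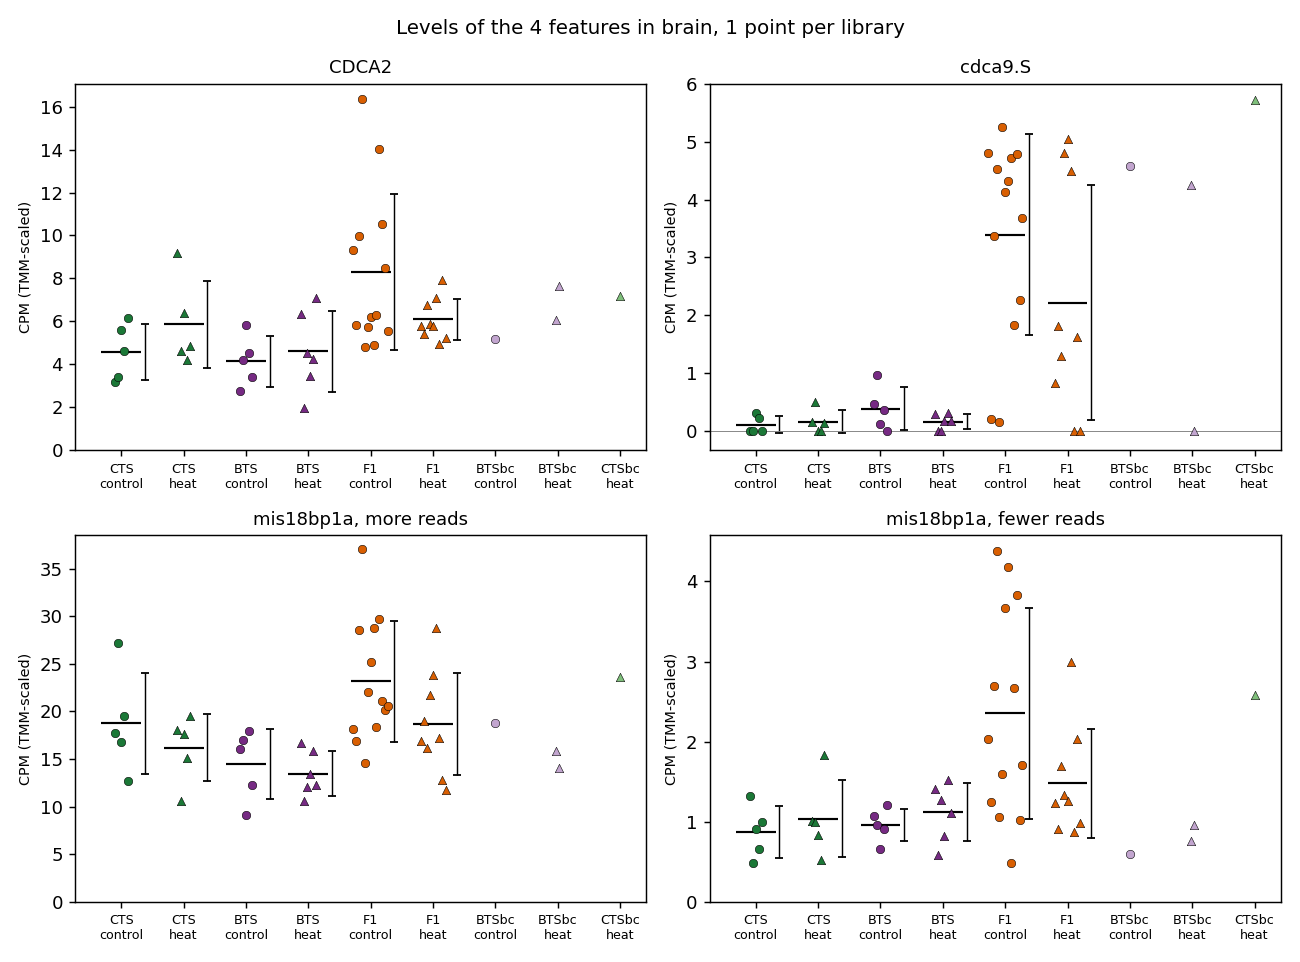
TMM-scaled CPM in brain (vertical axis) of the 4 features for each genotype and treatment, with 1 circle (control) or triangle (heat) per library. Black lines are group means and the bars beside them are ± 1 SD in groups of 3 or more. For cdca9.S, 11 of 13 F1 controls lie above the highest parental control of 0.963 CPM.

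Backcross brains also held cdca9.S. BTSbc control animal 26 had 4.59 CPM, heated BTSbc animal 12 had 4.25 CPM and heated BTSbc animal 30 had 0. CTSbc animal 84, heated, had 5.72 CPM, which was above every one of the 43 CTS, BTS and F1 brains. The highest parental brain was 0.963 CPM in controls and 0.496 CPM in heat, so 3 of the 4 backcross brains stood above it. With 1 or 2 animals in a group these are single values with no test. Titles clash with tags for all 4 of these animals: 12 and 26 are titled BTS, and 30 and 84 are titled F1.

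The F1 animals low for cdca9.S in brain were also low in muscle. Animal 02 had 0.824 CPM in brain and 0.346 in muscle, animal 05 had 0.209 and 0.251, and animal 19 had 0.151 and 0.565. Animals 86 and 91 were both at 0 in brain, with 0.214 and 0.0540 CPM in muscle. The other 16 F1 animals with both tissues lay between 1.62 and 5.27 CPM in brain and between 1.03 and 4.46 CPM in muscle. Among them, the muscle value of animal 67 rests on 4 reads. At 1 CPM, a level picked after the values were seen, the 2 tissues fell on the same side in 21 of 21 F1 animals. In muscle, BTSbc animals 26, 12 and 30 had 0.749, 2.75 and 0.256 CPM and CTSbc animal 84 had 2.74 CPM. Animal 26, at 4.59 CPM in brain, thus fell on different sides. No correlation between the tissues is given, because the F1 animals fall into separate clusters. F1 animals with a usable muscle library alone had 0.0994 CPM (17), 0.266 CPM (16) and 1.10 CPM (23).

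**Figure D2:**
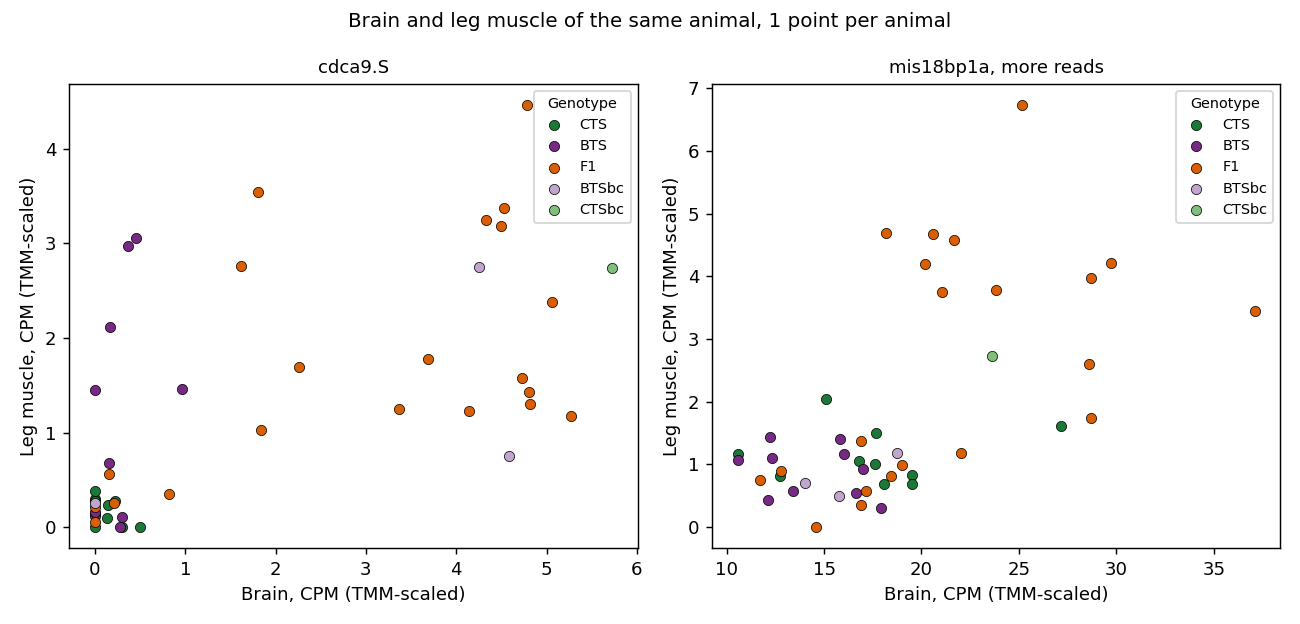
TMM-scaled CPM in brain (horizontal axis) and leg muscle (vertical axis) of the same animal, coloured by genotype, for cdca9.S (left) and mis18bp1a feature 1 (right), 1 point per animal. For cdca9.S, 16 F1 animals are at or above 1 CPM in both tissues and 5 are below it in both, while 5 BTS animals exceed it in muscle but not in brain.

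In muscle cdca9.S was higher in F1 than in CTS, but F1 and BTS overlapped. CTS control muscle had 0, 0, 0.143, 0.274 and 0.275 CPM, and CTS heat muscle 0, 0.0917, 0.229, 0.302 and 0.379 CPM. BTS control muscle was divided, with 0 and 0.157 CPM in animals 80 and 74 and 1.46, 2.97 and 3.06 CPM in animals 68, 71 and 60. The 6 heated BTS muscles ran from 0 through a median of 0.401 to 2.12 CPM. F1 control muscle ran from 0.251 through 1.25 to 3.37 CPM (n = 13) and F1 heat muscle from 0.0540 through 1.31 to 4.46 CPM (n = 11). Of these, 2 controls and 5 heated F1 muscles lay above the highest parent of their treatment. The 5 include animal 67, at 3.18 CPM from 4 reads. BTS animals 60 and 71, the highest in muscle, had 0.458 and 0.362 CPM in brain.

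Over both treatments cdca9.S in muscle was higher in F1 than in CTS by 3.08 (SE 0.67, adjusted p = 0.000374, edgeR), where 33.4% of all features were called. The F1 minus BTS difference was 0.39 (SE 0.51, adjusted p = 0.631), where 23.6% were called, which leaves room for a difference in either direction. BTS muscle was above CTS muscle by 2.69 (SE 0.73, adjusted p = 0.00235), among 46.6% of all features that differed between the parents there. CTS muscle held 9 reads in controls and 14 in heat, so cdca9.S entered the muscle fit through its higher groups. The F1 muscles also came mostly from the animals whose brains chose the name. The muscle p-values of F1 against CTS for cdca9.S are therefore not independent of that choice, and these differences are given as a description. That of BTS against CTS carries the limit of the filter. In brain cdca9.S entered the fit through F1, and the parents held 3 and 5 reads (CTS control and heat) and 12 and 6 reads (BTS), too few for a test of BTS against CTS. Among the other 3 features, 0 were called for BTS against CTS in brain by edgeR, by DESeq2 or at an unadjusted p below 0.05. Of all features edgeR called 35.1%, and 6729 of 15496 had an unadjusted p below 0.05. The comparison uses the parental controls against which the names were chosen, so it is a description. Within controls F1 minus CTS in muscle was 3.22 (adjusted p = 0.0223, beside 11.2% of features called), and it missed the threshold without CTS animal 57 or 63 (adjusted p = 0.0532 and 0.0583). Within heat it was 2.95 (adjusted p = 0.0150, beside 27.1% called), and 0.0707 without animals 11, 64 and 76 together.

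CDCA2 was read in every usable brain, and its control F1 brains reached higher than those of the parents. CTS control brains had 3.17, 3.39, 4.61, 5.59 and 6.15 CPM, and BTS control brains 2.75, 3.38, 4.17, 4.53 and 5.82 CPM. F1 control brains ran from 4.82 through a median of 6.30 to 16.4 CPM, 8 of 13 of them above the highest parental control. Animals 09, 52 and 64 were the highest, with 16.4, 14.0 and 10.5 CPM. Heated CTS brains had 4.22, 4.63, 4.84, 6.37 and 9.19 CPM, and heated BTS brains ran from 1.96 through 4.38 to 7.07 CPM. The 9 heated F1 brains ran from 4.94 through 5.78 to 7.90 CPM, and 0 of them lay above the highest heated parent. On the log2 scale the control difference was 0.86 against CTS (SE 0.26) and 1.13 against BTS (SE 0.27). In heat it was 0.11 (SE 0.27) and 0.34 (SE 0.26). The 4 backcross brains had 5.19 (26), 6.07 (12), 7.65 (30) and 7.20 CPM (84). All lay within the range of F1 and also within that of the parents of their treatment.

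In muscle CDCA2 was near the counting limit and did not pass the low-count filter. The BTS muscles held 3 reads in controls and 7 in heat, against 24 and 29 in CTS and 50 and 46 in F1. BTS control levels were 0, 0, 0, 0.0909 and 0.157 CPM. CTS controls had 0, 0.183, 0.528, 0.824 and 0.942 CPM. F1 control muscle ran from 0 through 0.293 to 0.952 CPM, and 1 of 13 lay above the highest parent. Fitted without the filter, BTS minus CTS was -2.52 (SE 0.61, adjusted p = 0.000954, edgeR), where 34.1% of all features were called. F1 minus BTS was 2.24 (SE 0.56, adjusted p = 0.00364), where 15.1% were called. F1 minus CTS was -0.27 (SE 0.48, adjusted p = 0.792). All of these values rest on few reads. The F1 muscles also came mostly from the animals whose brains chose the name, so the F1 values are a description. In a fit of both tissues, added after the values were seen, BTS minus CTS in muscle less the same in brain was -2.29 (SE 0.58) for CDCA2. CDCA2 entered that fit through its brain reads, so this is a description with no test, and 25% of all features were called there.

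mis18bp1a feature 1 had the most reads of the 4 features in brain, where F1 and the parents overlapped widely. CTS control brains had 12.7, 16.8, 17.7, 19.5 and 27.2 CPM and BTS control brains 9.12, 12.3, 16.0, 17.0 and 17.9 CPM. F1 control brains ran from 14.6 through 21.1 to 37.1 CPM, with 4 of 13 above the highest parent. Heated CTS brains had 10.6, 15.1, 17.6, 18.1 and 19.5 CPM, heated BTS brains ran from 10.6 through 12.8 to 16.7 CPM, and heated F1 brains from 11.7 through 17.2 to 28.7 CPM, 3 of 9 above the highest parent. The control difference from CTS was 0.33 (SE 0.20) and that from BTS was 0.68 (SE 0.21). In heat the values were 0.19 (SE 0.21) and 0.46 (SE 0.20). BTSbc brains had 18.7, 15.8 and 14.0 CPM (26, 12, 30) and CTSbc animal 84 had 23.6 CPM, above the highest heated parent.

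In muscle mis18bp1a feature 1 was higher in F1 than in both parents over the mean of both treatments. Muscle values did not enter the choice of names, but the F1 muscles came mostly from the animals whose brains did. The medians in heat alone were alike, with 0.993 CPM in F1 and 1.006 CPM in the parents. CTS control muscle had 0.687, 0.823, 1.06, 1.497 and 1.61 CPM, and BTS control muscle 0.304, 0.636, 0.928, 1.10 and 1.16 CPM. F1 control muscle ran from 0 through 3.45 to 6.74 CPM, with 9 of 13 above the highest parent. CTS heat muscle had 0.688, 0.825, 1.01, 1.16 and 2.04 CPM, BTS heat muscle ran from 0.427 through 0.823 to 1.44 CPM, and F1 heat muscle from 0.346 through 0.993 to 4.57 CPM. Of the 11 heated F1 muscles, animals 22, 44, 64 and 67 stood above the highest parent, between 3.74 and 4.57 CPM, and the other 7 were at or below 1.19 CPM. The value of animal 67, 3.98 CPM, rests on 5 reads in the shallowest muscle library kept. BTSbc muscle had 1.18, 0.499 and 0.705 CPM (26, 12, 30), within the parents' range, and CTSbc animal 84 had 2.74 CPM.

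**Figure D3:**
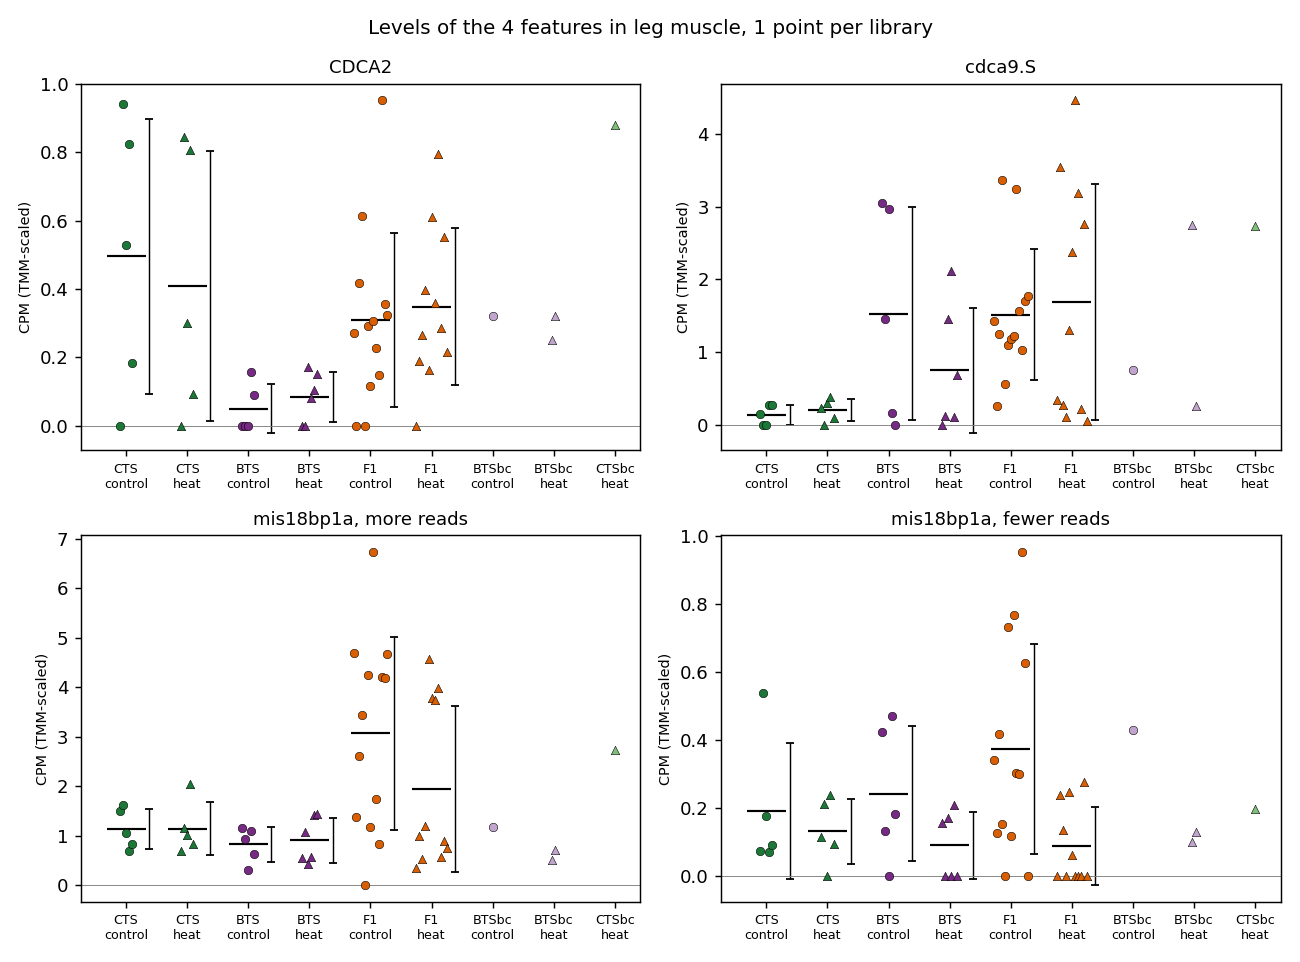
TMM-scaled CPM in leg muscle (vertical axis) of the 4 features by genotype and treatment, drawn as for brain with group means and ± 1 SD. For mis18bp1a feature 1, 9 of 13 F1 controls and 4 of 11 heated F1 (animal 67 among them, on 5 reads) lie above the highest parent of their treatment. For cdca9.S, BTS animals are divided between values near 0 and values up to 3.06 CPM.

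Over both treatments, F1 minus CTS for feature 1 in muscle was 1.13 (SE 0.38, adjusted p = 0.0204) and F1 minus BTS was 1.53 (SE 0.38, adjusted p = 0.00254). That was 1 of the 2 features that passed the filter in muscle, where 0.805% of all features were called above both parents over the mean. Without animals 11, 64 and 76 together the CTS difference was 1.01 (adjusted p = 0.0694, edgeR), and the call ended. With mostly the same animals, the muscle p-values of F1 against the parents are not independent of the choice of names. These differences are therefore given as a description. Within controls 0.0398% of features were called and within heat 0.518%, with 0 of the 2 members among either in edgeR and in DESeq2. The control values were 1.45 against CTS (unadjusted p = 0.0104, adjusted p = 0.0729) and 2.11 against BTS (adjusted p = 0.0150, beside 9.55% of features called). The latter missed the threshold without BTS animal 71 (adjusted p = 0.0677). At an unadjusted p below 0.05 in edgeR, feature 1 passed against both parents in controls and not in heat. In controls 3166 of 12554 features passed that level against CTS and 3065 against BTS, in either direction. Markers of microglia and other immune cells lay higher in F1 muscle than the mean of the parents in 7 of 7 tested, with a median of 0.55 and 0 called outside both parents. Their summed level ran from 33.3 to 279.6 CPM in F1, the highest in control animal 03, and from 16.6 to 136.2 CPM in the parents. The medians in controls were 63.2 CPM in F1, 57.0 in BTS and 46.4 in CTS. In heat they were 59.8 CPM in F1, 78.85 in BTS and 36.2 in CTS, so heated F1 did not exceed heated BTS. Of 6 erythroid markers 4 were higher, with a median of 0.37 and 1 called below both parents. Of 9 skeletal muscle markers 2 were higher (median -0.30), and of 4 markers of satellite cells and myoblasts 0 were (median -0.19). The part of these lists in the result was not tested.

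mis18bp1a feature 2 was lower in reads, and its F1 control brains reached higher than the parents. CTS control brains had 0.485, 0.658, 0.907, 1.001 and 1.32 CPM and BTS control brains 0.659, 0.906, 0.963, 1.07 and 1.21 CPM. F1 control brains ran from 0.485 through 2.04 to 4.38 CPM, with 9 of 13 above the highest parent. In heat F1 ran from 0.872 through 1.26 to 3.00 CPM, with 2 of 9 above the highest parent, of 1.83 CPM. The control difference was 1.34 against CTS (SE 0.39) and 1.39 against BTS (SE 0.39), and in heat the values were 0.52 (SE 0.40) and 0.35 (SE 0.38). BTSbc brains had 0.598, 0.759 and 0.956 CPM (26, 12, 30), and CTSbc animal 84 had 2.58 CPM. In muscle it did not pass the filter: no library exceeded 0.952 CPM, and without the filter F1 minus CTS was 0.34 (adjusted p = 0.804) and F1 minus BTS was 0.33 (adjusted p = 0.814).

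The joint variation of the features across F1 brains is given within each treatment and with no test, since the F1 control values chose the names. For the 2 mis18bp1a features, Pearson's r of log2 CPM over 13 control brains was 0.730 and Spearman's rho 0.742, and r was 0.682 without the 2 brains farthest from the median of feature 1. Over 9 heated brains r was 0.313 and rho 0.117, and r turned to -0.627 without 2 brains. For CDCA2 and feature 2, r was 0.409 and rho 0.335 in controls, and 0.857 and 0.950 in heat. For CDCA2 and feature 1, r was 0.575 and rho 0.440 in controls, falling to an r of 0.138 without 2 brains, and -0.0329 and 0.0333 in heat. These 3 pairs were chosen after the values were seen.

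Heat gave no call in edgeR for any of the 4 features in CTS or BTS brain or of the 2 tested in muscle. The CTS and BTS brain values use the parental controls against which the names were chosen, so they are a description. For cdca9.S in the parental brains the few reads leave little to test. The mean over the 3 genotypes in brain includes the F1 controls that chose the names, so it is no test of the 4 features. In brain 0.0968% of features were called over the mean of the 3 genotypes, 0% in CTS, 0% in BTS and 0.0516% in F1. In muscle the shares were 0.781% over the mean, 0.366% in CTS, 0.0159% in BTS and 0.112% in F1. Within F1 brain, heat minus control was -0.48 for CDCA2 (SE 0.21), -0.68 for mis18bp1a feature 2 (SE 0.30), -0.32 for feature 1 (SE 0.16) and -0.67 for cdca9.S (SE 0.49). These values use the F1 control brains in which the names were chosen as high, so they are a description with no test. Within F1 muscle feature 1 was at -0.84 (SE 0.39, unadjusted p = 0.0364, adjusted p = 0.447, edgeR) and cdca9.S at -0.25 (SE 0.57, adjusted p = 0.930). There 1314 of 12554 features had an unadjusted p below 0.05. DESeq2 also called 0 of them for heat in CTS or BTS brain or in muscle. For the difference of heat responses between brain and muscle the 4 features had values from -0.18 to 1.06, where 0.221% of all features were called. That difference includes the same F1 control brains, so its values are a description too.

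Sex gave no call in edgeR for any of them either, where 0.0645% of features in brain and 0.574% in muscle were called. The male minus female value for CDCA2 in brain was 0.33 (SE 0.16, unadjusted p = 0.0439, adjusted p = 1), the one feature of the 4 under an unadjusted 0.05. Of all features in brain, 661 of 15496 were under an unadjusted 0.05 for sex. In muscle cdca9.S was at 0.81 (SE 0.49, adjusted p = 0.624, edgeR). DESeq2 called 0 in both tissues.

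No other cell division gene of the lists was called above both parents in brain. Of 128 other features in 8 lists (centromere loading, passenger complex, other CDCA genes, kinetochore, mitotic entry, spindle, chromosome structure and DNA replication), 0 were called above both parents in controls, heat or their mean by edgeR or DESeq2. At an unadjusted p below 0.05, 0 in controls, 1 in heat and 1 over the mean stood above both, and 1, 1 and 2 stood below both. The median of F1 minus the mean of the parents was 0.02 in controls and 0.11 in heat, where the median over all features was 0.03 and 0.02. In controls 67 of the 128 were higher in F1, in heat 83 were and over the mean 82 were. The highest of them in controls was a feature named PTTG1 (AMEXTC_0340000123771), after securin, at 1.34 above the mean of the parents. That was above the values of CDCA2 (0.99) and mis18bp1a feature 1 (0.51) and close to that of feature 2 (1.36). Its F1 minus CTS value was 3.29 and its F1 minus BTS value -0.60, so it did not stand above both parents. Over the mean, 0 of the 128 were called below both, beside 0.168% of all features.

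For the nearest partners of the named genes, control F1 brain was set against the mean of the parents on the log2 scale. For incenp.L, the scaffold of the passenger complex, the value was -0.0082. BIRC5, a subunit of that complex, was at -0.0875. For aurkb.L, its kinase, it was 0.24. Of the 6 other tested features of the passenger complex list, 1 was higher in F1 in controls, with a median of -0.031. In heat 6 of 6 were higher, with a median of 0.226. Over the mean 6 of 6 were higher (median 0.111), and 0 were called above both parents in any of these. Of the proliferation markers only mki67.S and top2a are given here, which is part of the genes set to be named whatever their result. In control brain mki67.S had a median of 41.5 CPM in F1, 38.6 in CTS and 54.8 in BTS. It was lower in F1 than in BTS by -0.51 over both treatments (adjusted p = 0.00281), where 16% of all features were called, and the value against CTS was -0.11 (adjusted p = 0.635). For top2a, which untangles DNA, F1 was lower than CTS by -1.04 (adjusted p = 0.0202), where 16.8% were called, and the value against BTS was -0.70 (adjusted p = 0.141). Both lay on the other side of 0 from most of the 128 list features, of which 82 were higher in F1 over the mean. Of 27 DNA replication features 14 were higher over the mean, and of 25 mitotic entry features 15 were. These 2 genes therefore do not stand for the lists. In muscle 50 of 91 list features were higher in F1 than the mean of the parents in controls, 62 in heat and 59 over the mean. Their medians were 0.04, 0.21 and 0.13, where those over all features were 0.01, 0.03 and 0.02. Of the 91, 0 were called above both parents. MAD1L1, a spindle checkpoint gene, was the 1 list feature called below both over the mean. It was at -0.60 and -0.63 (adjusted p = 0.0204 and 0.0151, edgeR), where 0.741% of all features were called. That call ended without BTS animal 38, 60 or 71 or CTS animal 13.

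**Figure D4:**
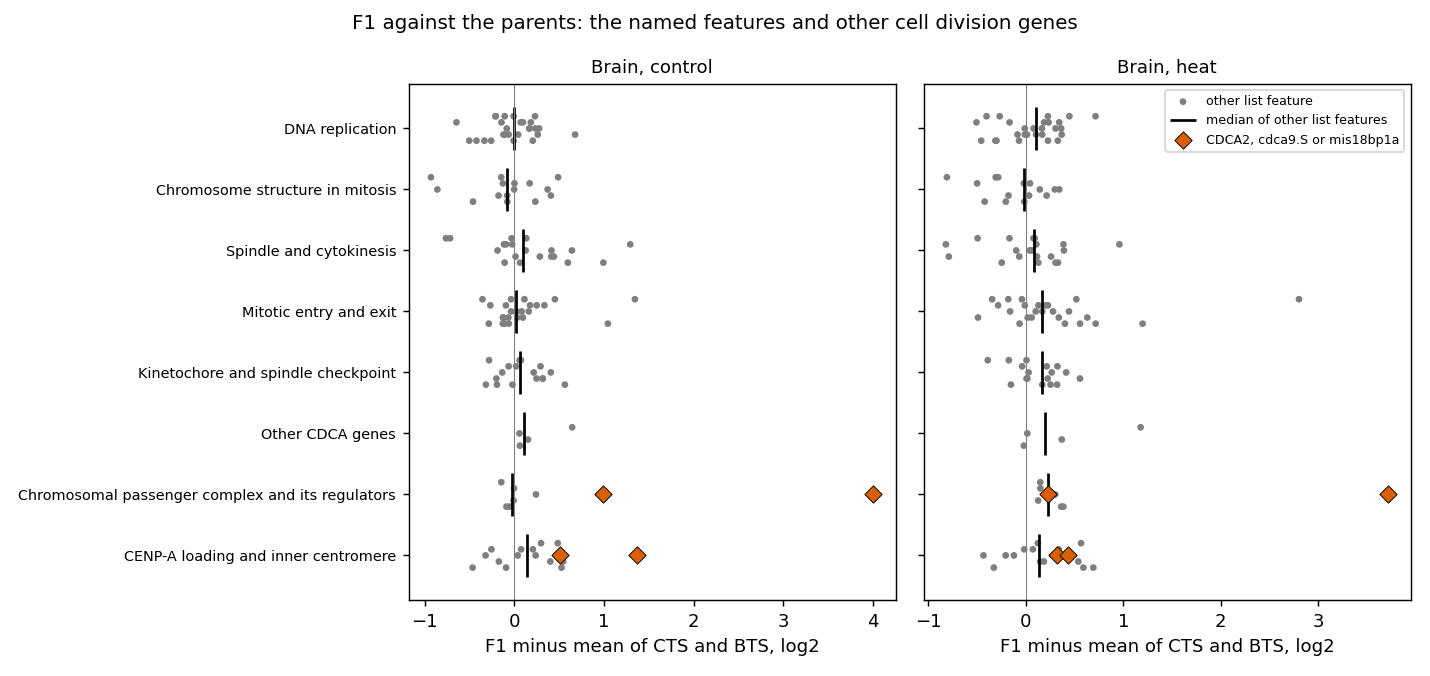
F1 minus the mean of CTS and BTS on the log2 scale (horizontal axis) in control (left) and heated (right) brain, with grey points for other features of 8 cell division lists, black bars for the list medians and orange diamonds for the 4 named features. In controls the diamonds lie at 0.51, 0.99, 1.36 and 4.00, against a median of 0.02 and a highest value of 1.34, that of PTTG1, for the 128 other features.

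No marker of any cell type list was called outside both parents in brain. Of the 12 tested markers of neural stem and ependymal cells, 4 were higher in control F1 brain than the mean of the parents, with a median of -0.09, and 0 were called outside both parents. Their summed level ran from 3786 to 6423 CPM in F1 controls, from 3706 to 5369 in CTS controls and from 4253 to 6626 in BTS controls. Markers of the oligodendrocyte lineage lay lower in F1, with a median of -0.39 in controls (1 of 6 higher) and -0.34 in heat (0 of 6). Those of microglia and other immune cells were at -0.27 (3 of 7 higher) and -0.32 (2 of 7), and erythroid markers at -0.11 and -0.16 (1 of 6 each). Skeletal muscle markers were at -0.08 in controls (2 of 6 higher) and 0.95 in heat (6 of 6 higher). Summed over 9 such features, heated brains had medians of 36.4 CPM in F1, 36.1 in BTS and 33.9 in CTS. The highest sums in heat were 67.2, 70.8 and 1708 CPM in the same order. Neuron markers were at 0.12 in controls (4 of 7 higher) and -0.19 in heat (2 of 7). The part of these lists in the F1 values of the named genes was not tested.

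Across 43 CTS, BTS and F1 brains, the gene ranked most like cdca9.S by Pearson's r was ZNF23, a zinc finger gene. It was also first once group means were taken off. Next by level came LOC102365065, fucU, ALAD and LOC101942451. No r is given for cdca9.S or ZNF23, because both fall into high and low sets of F1 brains. ZNF23 was at 0 in F1 brains 02, 05, 06, 86 and 91 and at 0.151 CPM in animal 19, and it lay between 14.8 and 37.8 CPM in the other F1 brains. Animal 06 departs from cdca9.S, which stood there at 1.81 CPM. Of the parental brains, CTS animal 66 had 15.7 CPM of ZNF23 and the rest had at most 1.99 CPM. Backcross brains 26, 12 and 84 had 43.9, 26.0 and 45.4 CPM, and animal 30 had 0. CDCA2 was most like GCLC (0.645), SPIRE1 (0.626), MGEA5 (0.613), ZNF23 and LOC102396279 (0.589), with r in parentheses. For mis18bp1a feature 1 JARID2 led both by level (0.647) and within groups (0.656). For feature 2 the first by level was again ZNF23, followed by LTK (0.608), and within groups it was KIAA0753 (0.632). These are descriptions over libraries that share depth and genotype, with no test. For cdca9.S, CDCA2 and feature 2 the ranks by level use the values that chose the names. Features that also differ between F1 and the parents therefore rank high through that choice. ALAD was itself called above both parents in control F1 brain.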

How the data were processed

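Poly(A) RNA of whole brain and leg muscle was sequenced from stranded libraries, per the labels' protocols. The authors deposited whole-number read counts per feature, made with Trimmomatic, STAR and HTSeq and checked with FastQC, per the submitters' processing notes. Tool versions: not given in the sources used here; likewise the genome build. Of all columns, 0 lacked a sample. Features keep the names of the deposited tables. One labelled heated F1 brain without a column was not analysed here. Counts were fitted in edgeR 4.0.16 (R 4.3.3) with TMM scaling, its expression filter, a group term and sex, over all 44 brain or 46 muscle libraries of CTS, BTS and F1. This left 15496 and 12554 features. P-values were adjusted by Benjamini-Hochberg over all features tested, at 0.05. Backcrosses entered no fit. The members and lists were chosen with earlier results of these data known. The genes named as most alike are the 5 named features with the highest Pearson r of log2 CPM (prior count 2) and a mean of at least 1 CPM. A step on simulated data tested the fit.

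Samples of a group are separate animals by their numbers. Duplicated libraries were looked for by comparing counts pairwise within groups, and every pair differed beyond sampling noise: the lowest mean chi-square per feature was 8.82, where noise alone gives about 1. A count of 0 allows up to 3 reads, which is 0.222 to 0.934 CPM over the 47 brain libraries used. PCR reads are not independent molecules, so intervals cover counting error only. Brain and muscle share animals by the titles, and in 40 animals deviations from group means correlated at a mean r of 0.165 within an animal and -0.00378 between animals. DESeq2 1.42.0, RLE scaling, other filters, no sex term, fewer groups, left-out libraries and a block for the animal were the alternatives.
One gene and the comparison that needed it are not reported here.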

Additional observations from a re-analysis of the deposited data

Results flagged for a closer look

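In 3 backcross brains, which entered no comparison, cdca9.S was read above every parental brain of their treatment: BTSbc control animal 26 had 4.59 CPM against at most 0.963 CPM, and heated animals 12 (BTSbc) and 84 (CTSbc) had 4.25 and 5.72 CPM against at most 0.496 CPM. For CDCA2, BTS minus CTS in muscle less the same in brain was -2.29 on the log2 scale in the fit of both tissues. That fit called it, as it did 25% of all features, but CDCA2 entered through its brain reads and BTS muscle held 3 reads in controls and 7 in heat, so the value is a description and not a tested difference between tissues.

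Within groups of 4 to 10 libraries, 1 library stood far from the rest in 2 of 36 sets of values. Chance gives about 1 in 20 for normally spread values, which counts this low are not. For cdca9.S, heated CTS brain animal 07 had 0.496 CPM (3 reads) with the next at 0.144 CPM (1 read). The same library held the most muscle marker RNA, while the muscle of animal 07 had 0 reads of cdca9.S. A link was not tested. For mis18bp1a feature 2, control CTS muscle animal 63 had 0.538 CPM (4 reads) with the next at 0.176 CPM (1 read).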

How the results depend on the processing

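Values that turned in sign lay between -0.25 and 0.40 as reported, and none that was tested was called under either setting. Under RLE scaling, the brain minus muscle heat response was 0.0185 for CDCA2 and 0.0645 for mis18bp1a feature 1. Without the sex term, heat minus control in muscle was 0.0785 for cdca9.S in F1 and 0.0295 for feature 1 in CTS. For feature 2 in brain, BTS minus CTS was -0.0425 with DESeq2 and -0.0388 with RLE scaling, and heat in CTS was -0.252 without animals 16, 64 and 76. Leaving out 1 library at a time gave ranges across 0. For CDCA2 they were -0.00954 to 0.445 (F1 minus CTS, heated brain), -0.374 to 0.156 (heat, brain minus muscle), -0.0736 to 0.386 (heat, CTS brain) and -0.0702 to 0.0801 (heat, mean, brain). For cdca9.S they were -0.302 to 0.616 (F1 minus BTS, control muscle), -0.525 to 0.196 (heat, brain minus muscle), -0.399 to 1.34 (heat, CTS brain) and -0.279 to 0.456 (heat, CTS muscle). For feature 1 they were -0.245 to 0.0902 (BTS minus CTS, muscle minus brain) and -0.0811 to 0.142 (heat, brain minus muscle). For feature 2 they were -0.328 to 0.406 (the first of these), -0.0295 to 0.264 (BTS minus CTS, brain), -0.286 to 0.379 (heat, CTS brain) and -0.190 to 0.0235 (heat, mean, brain). Members called above both parents in control brain fell from 3 to 1 with control libraries alone and ranged from 1 to 3 with 1 library left out (1 without CTS animal 63, 77 or 83); in heat 1 became 0 with heated libraries alone or the strict filter; over the mean 2 became 1 under the strict filter, with a range of 1 to 3 (1 without BTS animal 69). In muscle, 1 became 0 without the doubtful libraries, where feature 1 minus CTS was 1.01. Called for BTS against CTS in muscle were 2 without the filter and 0 under the strict one. List features above both parents in muscle went from 0 to 1 in controls (DESeq2, no filter, strict filter, controls alone, without the doubtful libraries, and without BTS animal 38, 68, 75 or 80 or CTS animal 13, 66 or 76), from 0 to 1 in heat (DESeq2, and without CTS animal 04) and from 0 to 1 over the mean (without CTS animal 66 or 76); those below both ranged from 0 to 1. The cause of these shifts was not tested. With the animal as a replicate block, the brain minus muscle heat response was -0.186 for CDCA2, -0.131 for cdca9.S, -0.00994 for feature 1 and 0.848 for feature 2, and no call changed. Removing animals 11, 16, 64 and 76 was chosen after seeing the data, and the strict filter gave no value for features below it. Few reads in muscle limit CDCA2 and feature 2.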
